A study of Homo sapiens with 15 samples.

Results

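The genes described here are EPCAM, the keratins KRT18, KRT19, KRT5, KRT8 and KRT10, and the epithelial genes MAL2, DSP and ESRP1, as they were measured in THP-1 cells. They were taken as every non-control probe set that the platform annotation assigns to 1 of these 9 genes alone, which gave 13 of the 54613 non-control probe sets on the array. The genes were selected on earlier results of the same arrays, so their differences from 0 h and between the agents are given as a description and not as a test. THP-1 is a human monocytic line that was established from leukaemia cells and serves as a model of monocytes. There were 15 samples, each measured on 1 Affymetrix expression array, in 5 groups of 3: untreated cells at 0 h, cells exposed to infliximab for 6 or 24 h, and cells exposed to CDP870 for 6 or 24 h. Infliximab is a whole antibody against tumour necrosis factor (TNF), and CDP870 (certolizumab pegol) is a PEGylated antibody fragment against TNF that has no Fc part. No agent was given to the 0 h cells, and no untreated cells at 6 or 24 h are among the samples, so exposure to an agent and time in culture cannot be told apart against 0 h. The sources used here give no doses. All groups are the same cell line, and the design text names biological replicates without saying whether they were separate cultures. The p-values therefore measure the spread between these samples.

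Keratins are intermediate filament proteins, and a type I keratin pairs with a type II keratin to form a filament. KRT8 (type II) pairs with KRT18 and KRT19 (type I) in simple epithelia, while KRT5 (type II) marks basal cells of stratified epithelia and KRT10 (type I) the differentiating layers above them. EPCAM is an epithelial cell surface adhesion protein that can be cleaved to release a signalling fragment. DSP (desmoplakin) ties keratin filaments to desmosomes, MAL2 acts in transport to the apical membrane, and ESRP1 is a splicing regulator of epithelial cells. EPCAM and most of these keratins serve as markers that tell epithelial cells from blood cells, and the question here is how their RNA levels in a monocytic line differed between the agents and times.

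All values are log2 probe set summaries whose zero is unknown, so a value has no unit of amount and levels of different genes are not compared. A probe set was tested if it lay above its array's own median on at least 3 of the 15 arrays, which kept 28897 probe sets. The array medians ran from 2.93 to 3.07. Of the 13 member probe sets 12 were tested, and they cover all 9 genes. All but 2 of these lay above the array median on 8 to 15 arrays, while those just inside the limit were MAL2, above it on 5 arrays, and ESRP1 225846_at, above it on 4. These were all infliximab arrays, so both probe sets entered the test only through the groups where they were high. ESRP1 219121_s_at was above the median on 8 arrays, which were the 6 infliximab arrays, control replicate 2 and CDP870 6 h replicate 14. Without its infliximab arrays it too would have missed the limit. The infliximab calls of MAL2 and of both ESRP1 probe sets below are therefore no support for a difference. The 1 probe set outside was KRT19 228491_at, which was above the median on 0 arrays.

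The arrays differed in ways the groups do not define. Over all tested probe sets the standard deviation of an array's difference from the mean of the other 2 arrays of its group was 0.31 for control replicate 3 and 0.31 to 0.39 for the 3 infliximab 24 h arrays, against 0.17 to 0.24 for the other 11. Infliximab 24 h replicate 6 also had the largest 3' minus 5' differences of GAPDH and beta-actin (0.24 and 0.27), where the other arrays lay between -0.14 and 0.03. The 18 hybridisation spike-in probe sets averaged 7.75 ± 0.04 (SD, n = 3) with infliximab at 6 h and 7.38 ± 0.13 (SD, n = 3) at 0 h, with no overlap. Where a member's call was lost without control replicate 3 and infliximab 24 h replicates 5 and 6, or with the spike-in level in the model, its value in that fit is given too.

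In 5 of the 9 genes the groups fell in 1 order. EPCAM, KRT18, KRT19 (201650_at), KRT5 and KRT8 were higher on each of the 6 infliximab arrays than on any control array, and lower on each of the 6 CDP870 arrays than on any control array. Of all tested probe sets, 37 of 28897 (0.128%) had this order. The smallest gaps were in KRT8, whose lowest infliximab value exceeded the highest control value by 0.11 and whose highest CDP870 value lay 0.02 under the lowest control value. In EPCAM these gaps were 0.40 and 0.22. MAL2 and ESRP1 225846_at were also higher with infliximab, while their CDP870 arrays overlapped with control. All DSP groups overlapped with control, and KRT10 was called in no comparison.

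**Figure D1:**
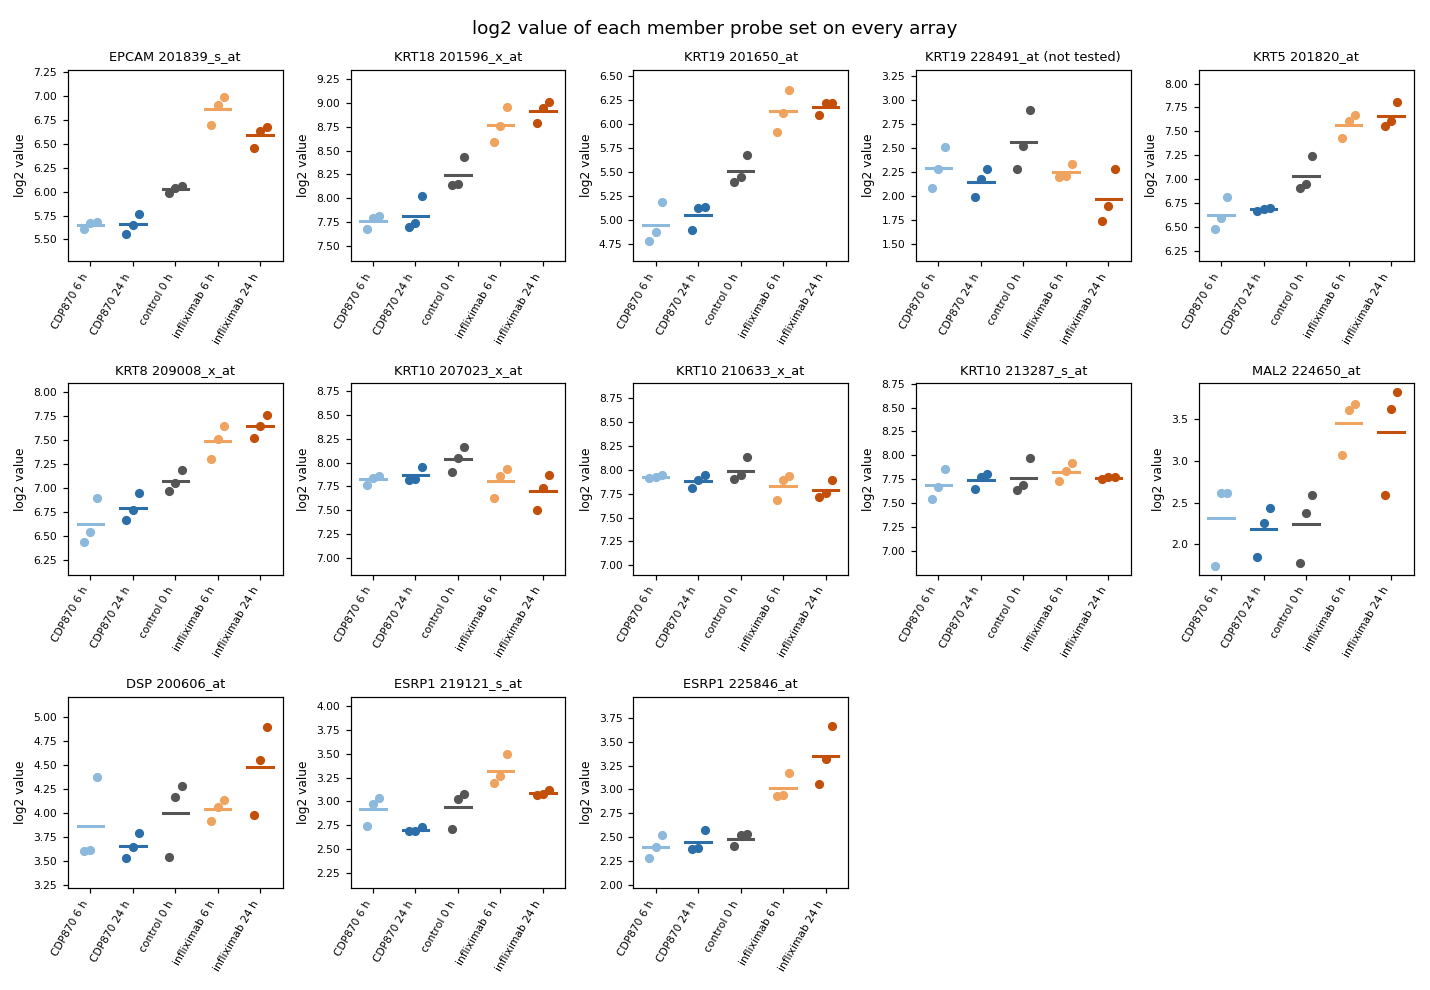
Deposited log2 value (y axis) of each of the 13 member probe sets on each array, by group (x axis: CDP870 6 h, CDP870 24 h, control 0 h, infliximab 6 h, infliximab 24 h). Points are arrays, horizontal lines are group means, and every panel has its own y range. In EPCAM the CDP870 arrays end at 5.77, the control arrays lie between 5.99 and 6.06 and the infliximab arrays start at 6.46.

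EPCAM (probe set 201839_s_at) read 5.99, 6.04 and 6.06 on the 3 control arrays. With infliximab it read 6.91, 6.99 and 6.70 at 6 h, and 6.46, 6.63 and 6.68 at 24 h. With CDP870 it read 5.67, 5.61 and 5.68 at 6 h, and 5.77, 5.65 and 5.56 at 24 h. No array of an infliximab or CDP870 group overlapped with control, and the infliximab 24 h arrays all lay below the infliximab 6 h arrays. The log2 difference from 0 h was 0.84 ± 0.10 (standard error, SE, of the limma model, as for all differences below; n = 3 arrays per group) at 6 h of infliximab, or 1.79-fold, and 0.56 ± 0.10 at 24 h, or 1.47-fold. With CDP870 it was -0.38 ± 0.10 at 6 h and -0.37 ± 0.10 at 24 h, neither of which was called. Both infliximab differences were called (an adjusted p under 0.05 over all tested probe sets), and both stayed called without any 1 of the arrays compared. The 24 h call was lost in a fit of only the arrays compared (0.56 ± 0.11). EPCAM was the only member still called at 6 h when the spike-in level was added to the model (0.68 ± 0.13).

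KRT18, the type I keratin of simple epithelia, was measured by 201596_x_at. It read 8.15, 8.43 and 8.14 on the control arrays. With infliximab the values were 8.59, 8.95 and 8.76 at 6 h and 9.01, 8.94 and 8.79 at 24 h. With CDP870 they were 7.68, 7.82 and 7.79 at 6 h and 7.74, 7.70 and 8.02 at 24 h. The groups of the 2 agents were thus on opposite sides of control at both times. The differences from 0 h were 0.53 ± 0.12 and 0.67 ± 0.12 with infliximab, both called, and -0.48 ± 0.12 and -0.42 ± 0.12 with CDP870, neither called. At 24 h the infliximab call held in each of the 6 removals of 1 array, but it was lost without control replicate 3 and infliximab 24 h replicates 5 and 6 together (0.65 ± 0.16) and in a fit of only the arrays compared (0.67 ± 0.13). At 6 h it was lost without control replicate 2, control replicate 4 or infliximab 6 h replicate 9, with the difference between 0.43 and 0.62, and with the spike-in level in the model (0.67 ± 0.17).

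KRT8, the type II partner of KRT18, was measured by 209008_x_at and read 6.97, 7.19 and 7.05 on the control arrays. With infliximab it read 7.30, 7.65 and 7.51 at 6 h and 7.76, 7.65 and 7.52 at 24 h. With CDP870 it read 6.43, 6.54 and 6.89 at 6 h and 6.77, 6.66 and 6.95 at 24 h. The order of the groups was that of KRT18, with narrower gaps. Its difference from 0 h was 0.57 ± 0.13 at 24 h of infliximab, which was called, and 0.42 ± 0.13 at 6 h, which was not. The 24 h call was lost without control replicate 2, control replicate 4 or infliximab 24 h replicate 5, with the difference between 0.51 and 0.63. It was also lost without control replicate 3 and infliximab 24 h replicates 5 and 6 together (0.51 ± 0.19). With CDP870 the differences were -0.45 ± 0.13 and -0.28 ± 0.13, neither called.

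KRT19, a type I keratin of simple epithelia with a very short tail domain, has 2 probe sets. On 201650_at it read 5.40, 5.68 and 5.45 in control, then 5.92, 6.36 and 6.12 at 6 h of infliximab and 6.22, 6.22 and 6.10 at 24 h. With CDP870 it read 4.78, 4.87 and 5.19 at 6 h and 5.13, 5.12 and 4.89 at 24 h. This was the widest separation between the agents among the member keratins, with 0.73 between the lowest infliximab and the highest CDP870 value. Against 0 h the differences were 0.62 ± 0.13 and 0.67 ± 0.13 with infliximab, both called, and -0.56 ± 0.13 and -0.46 ± 0.13 with CDP870, neither called. The 6 h call was lost without infliximab 6 h replicate 9 (0.51) and with the spike-in level in the model (0.40 ± 0.18). The 24 h call was lost without control replicate 3 and infliximab 24 h replicates 5 and 6 together (0.68 ± 0.20). The second probe set, 228491_at, read between 1.74 and 2.90, under the median of every array, and was not tested. Its mean was 2.57 ± 0.31 (SD, n = 3) in control and 1.97 ± 0.28 (SD, n = 3) with infliximab at 24 h, so its order was not that of 201650_at.

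KRT5, the type II keratin of basal cells (201820_at), read 6.95, 7.24 and 6.91 in control. It read 7.43, 7.67 and 7.61 at 6 h of infliximab and 7.61, 7.81 and 7.56 at 24 h. It read 6.59, 6.48 and 6.81 at 6 h of CDP870 and 6.69, 6.67 and 6.70 at 24 h. As with the simple keratins, neither agent's arrays overlapped with control. The differences were 0.54 ± 0.12 and 0.63 ± 0.12 with infliximab, both called, and -0.41 ± 0.12 and -0.35 ± 0.12 with CDP870, neither called. The 6 h call was lost without infliximab 6 h replicate 9 and with the spike-in level in the model (0.42 ± 0.17). KRT14, the usual type I partner of KRT5, lay below the test limit.

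KRT10, the type I keratin of differentiating epidermis, has 3 tested probe sets, and none was called in any comparison. On 207023_x_at it read 7.90, 8.16 and 8.05 in control, 7.86, 7.63 and 7.93 at 6 h of infliximab, and 7.50, 7.87 and 7.73 at 24 h. The CDP870 arrays read between 7.77 and 7.95 on this probe set. The infliximab 24 h arrays lay below the control arrays on this probe set and on 210633_x_at, opposite to the other keratins, with differences of -0.34 ± 0.11 and -0.20 ± 0.09. On 213287_s_at the same difference was 0.00 ± 0.11, and the group means ran from 7.69 to 7.83. Between the agents the differences of the 3 KRT10 probe sets ran from -0.17 to 0.14 over both times.

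The probe sets of KRT18 and KRT8 and the first 2 of KRT10 have the suffix _x_at, which Affymetrix gives to sets whose probes may match other sequences. RefSeq names 68 pseudogenes of KRT18, 52 of KRT8, 5 of KRT19 and 0 of KRT5 and KRT10. Whether pseudogene transcripts add to these signals was not tested. KRT5 (201820_at), with the plain suffix _at and no named pseudogene, had the same order of groups as KRT18 and KRT8. That order does not show what the probes of KRT18 and KRT8 bind.

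The upstream sequences of KRT5, KRT8 and KRT10 are shown because the first 2 keratins moved together between the agents and KRT10 did not. They are the 250 bases before the transcription start in RefSeq's GRCh38.p14 annotation, 5' to 3' on the gene's own strand, which is the minus strand for all 3. KRT5 is at chr12:52520395-52520644, KRT8 at chr12:52926470-52926719 and KRT10 at chr17:40822615-40822864. The annotated extent of KRT8 reaches beyond the start used here, so this window may not be upstream of the start that KRT8 uses in these cells. No other start of KRT8 was searched. Of the 9 members, 4 were matched in the promoter table (these 3 and DSP). Capitals mark matches of the motifs named below.
KRT5: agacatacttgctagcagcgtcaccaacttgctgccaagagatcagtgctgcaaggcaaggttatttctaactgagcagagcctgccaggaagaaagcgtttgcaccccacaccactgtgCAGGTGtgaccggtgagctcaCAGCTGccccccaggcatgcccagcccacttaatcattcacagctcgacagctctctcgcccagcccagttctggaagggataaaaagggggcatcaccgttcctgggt
KRT8: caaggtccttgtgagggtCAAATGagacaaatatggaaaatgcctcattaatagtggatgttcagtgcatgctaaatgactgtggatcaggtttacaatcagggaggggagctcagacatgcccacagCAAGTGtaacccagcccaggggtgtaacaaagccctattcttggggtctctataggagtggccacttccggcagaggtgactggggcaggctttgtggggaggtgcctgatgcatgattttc
KRT10: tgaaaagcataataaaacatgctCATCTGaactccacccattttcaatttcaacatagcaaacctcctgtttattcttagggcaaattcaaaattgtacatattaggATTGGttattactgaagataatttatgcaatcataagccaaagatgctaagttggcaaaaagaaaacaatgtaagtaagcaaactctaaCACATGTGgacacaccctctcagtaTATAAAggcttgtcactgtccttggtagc
The motifs searched, on both strands, were the GC box GGGCGG, the TATA box TATAAA, the CCAAT box (CCAAT), the AP-1 site TGANTCA, the E-box CANNTG and the C/EBP-ATF composite TGATGNAAT. KRT5 and KRT8 each held 2 E-boxes and no other match. KRT10 held 3 E-boxes, of which 2 overlap, 1 CCAAT on the opposite strand, and 1 TATA box that begins 29 bases before the start. DSP (plus strand) held 7 GC boxes and 2 E-boxes. Of all 35116 promoters of this length, 61.8% hold an E-box, 42.6% a GC box, 32.0% CCAAT, 10.7% the TATA box, 6.57% the AP-1 site and 0.888% the composite. The GC content was 56.0% for KRT5, 50.4% for KRT8, 34.8% for KRT10 and 78.0% for DSP, against a median of 58.0% over all promoters. E-boxes are thus common in such windows, and in these windows no searched motif was held by KRT5 and KRT8 that KRT10 lacked. These matches are a description of letters in the window.

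MAL2, an apical transport protein (224650_at), lay near the array median. It read 2.37, 1.77 and 2.59 in control, 3.61, 3.68 and 3.07 at 6 h of infliximab, and 2.59, 3.63 and 3.83 at 24 h. The CDP870 arrays read 2.61, 1.74 and 2.61 at 6 h and 2.25, 2.43 and 1.85 at 24 h. Of the 6 infliximab arrays 5 were above every other array, and infliximab 24 h replicate 5 was level with the highest control array. The difference was 1.21 ± 0.32 at 6 h, which was called, and 1.11 ± 0.32 at 24 h, which was not. With CDP870 it was 0.08 ± 0.32 and -0.07 ± 0.32. The 6 h call was lost in 4 of the 6 removals of 1 array (control replicates 2 and 3, infliximab replicates 8 and 9), with the difference between 0.97 and 1.40. With the spike-in level in the model it was 0.53 ± 0.40 and not called.

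ESRP1, the splicing regulator, has 2 probe sets near the array median. On 225846_at it read 2.52, 2.41 and 2.53 in control, 2.94, 3.17 and 2.93 at 6 h of infliximab, and 3.06, 3.32 and 3.66 at 24 h. With CDP870 it read 2.40, 2.52 and 2.28 at 6 h and 2.58, 2.39 and 2.38 at 24 h, which overlaps control. The differences with infliximab were 0.53 ± 0.13 and 0.86 ± 0.13, both called. The 24 h call held in all 6 removals of 1 array, whereas the 6 h call was lost in each of them, with the difference between 0.45 and 0.57, and with the spike-in level in the model (0.38 ± 0.19). On 219121_s_at the group means were 2.94 in control, 3.32 and 3.09 with infliximab at 6 and 24 h, and 2.92 and 2.70 with CDP870. Here neither difference from 0 h with infliximab was called (0.38 ± 0.11 and 0.15 ± 0.11). The 2 probe sets thus differ in which infliximab time had the higher mean.

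DSP (200606_at), the desmosomal linker of keratin filaments, read 3.54, 4.28 and 4.17 in control. With infliximab it read 3.92, 4.06 and 4.14 at 6 h and 4.55, 4.90 and 3.98 at 24 h. With CDP870 it read 3.61, 3.60 and 4.38 at 6 h and 3.79, 3.53 and 3.64 at 24 h. All of these groups overlapped with control, whose own spread was 0.40 (SD, n = 3). No difference from 0 h was called, at 0.04 ± 0.25 and 0.48 ± 0.25 with infliximab and -0.13 ± 0.25 and -0.34 ± 0.25 with CDP870.

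**Figure D2:**
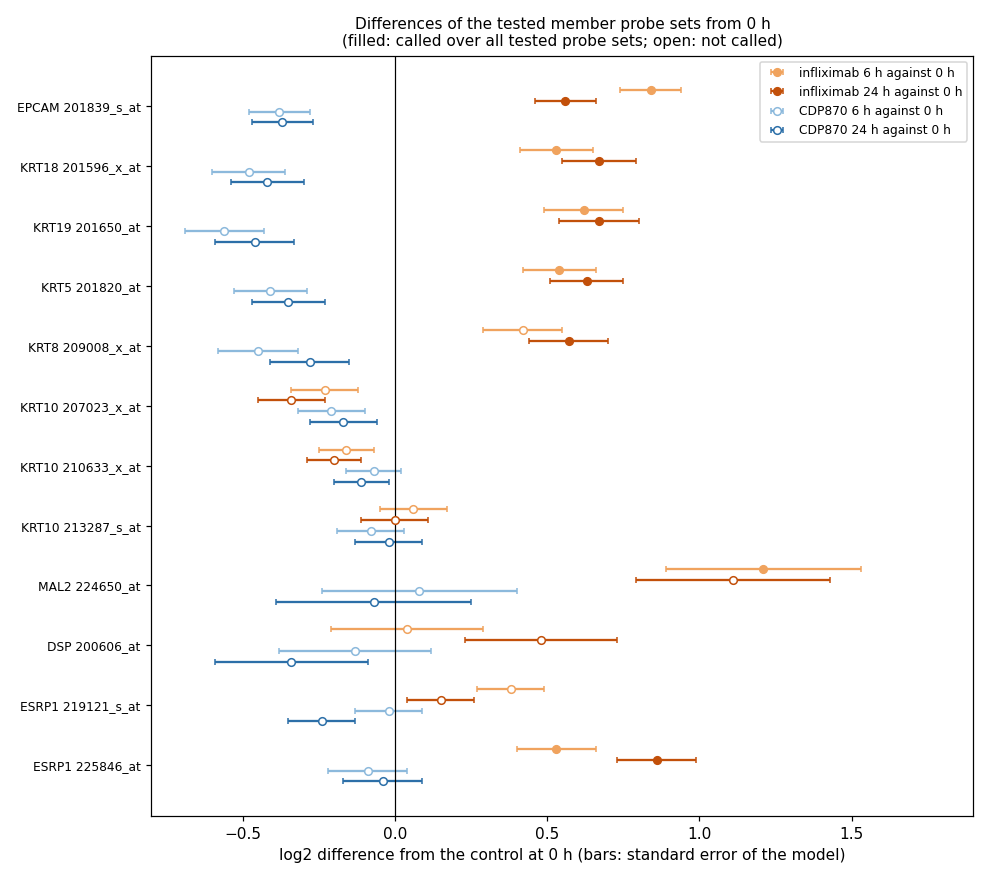
Log2 difference from the control at 0 h (x axis) of the 12 tested member probe sets (y axis) for each agent and time. Bars are standard errors of the limma model, filled points were called over all tested probe sets and open points were not. EPCAM stands at 0.84 and 0.56 with infliximab and at -0.38 and -0.37 with CDP870, while the KRT10 probe sets lie near 0 or below it for both agents.

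Across the members, infliximab at 6 h gave 6 called higher of 12 tested probe sets, from 6 genes, and none lower. The background is 4.02% of all tested probe sets called higher. At 24 h it also gave 6 called higher, from 6 genes, against a background of 3.78%. The median log2 difference of the members was 0.47 at 6 h and 0.57 at 24 h, where that of all tested probe sets was -0.04 and -0.02. The arrays of 8 member probe sets at 6 h and 6 at 24 h all lay above the control arrays, against 12.4% and 8.67% of all tested probe sets. MAL2 is among the called at 6 h and ESRP1 225846_at at both times, and both entered the test only through infliximab arrays. The members were also chosen by these contrasts, so nothing is read from these shares.

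Single arrays and model choices moved these counts. Without infliximab 6 h replicate 9, which was the highest of its group for each of EPCAM, KRT18, KRT19, KRT5 and KRT8, 1 member was called at 6 h. Without control replicate 2 it was 3. With the spike-in level in the model it was 1, and 181 of all tested probe sets were then called in either direction. At 24 h, 0 members were called when the model held only the arrays of infliximab 24 h and control, where 200 probe sets were called in all. The differences cannot move in that fit, which uses the same group means, so only the standard errors and calls could change. There KRT19 stood at 0.67 ± 0.12, KRT5 at 0.63 ± 0.14, KRT8 at 0.57 ± 0.12 and ESRP1 225846_at at 0.86 ± 0.16. Leaving out control replicate 3 and infliximab 24 h replicates 5 and 6 left 3 called members at 24 h: EPCAM (0.66 ± 0.14), KRT5 (0.63 ± 0.14) and ESRP1 225846_at (1.14 ± 0.14). The last fit has 1 infliximab 24 h array, replicate 7, which is assumed to vary like the arrays of the other groups. Replicate 7 differed from the other 2 of its group with a standard deviation of 0.35, against 0.39 for replicate 5 and 0.31 for replicate 6. Which arrays to leave out was thus a choice. When only replicate 7 was left out, 6 members were called at 24 h.

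With CDP870, 0 members and 0% of all tested probe sets were called in either direction at 6 h or at 24 h. At an unadjusted p under 0.05 limma gave 5 members at 6 h and 4 at 24 h, out of 1352 and 1359 probe sets in all. The median difference of the members was -0.17 at 6 h and -0.26 at 24 h, against -0.01 and -0.03 for all tested probe sets. All 3 CDP870 arrays lay below all 3 control arrays for 6 members at 6 h (EPCAM, KRT18, KRT19, KRT5, KRT8 and KRT10 207023_x_at) and for 5 at 24 h (the same without KRT10), where 6.05% and 7.0% of all tested probe sets did so. The lower values with CDP870 in these genes are therefore separations of 3 arrays from 3 that did not pass the test across all probe sets.

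**Figure D3:**
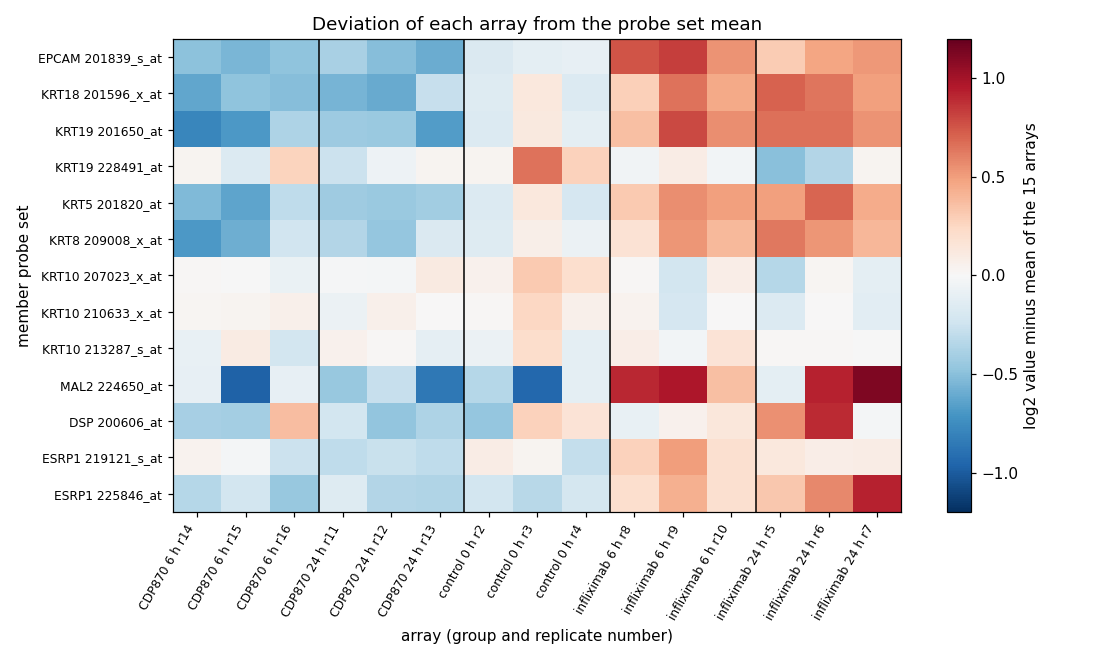
Deviation of each array (x axis, by group with its replicate number) from the 15-array mean of each member probe set (y axis), as a log2 difference shown by colour from blue (below) to red (above). EPCAM, KRT18, KRT19 201650_at, KRT5 and KRT8 are blue on the CDP870 arrays and red on the infliximab arrays, and the KRT10 rows and KRT19 228491_at are not.

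Between the agents, EPCAM, KRT18, KRT19 201650_at, KRT5 and KRT8 differed by more than from 0 h, since the agents lay on opposite sides of control. At 6 h EPCAM was higher with infliximab than with CDP870 by 1.21 ± 0.10 on the log2 scale (2.32-fold) and KRT19 by 1.19 ± 0.13 (2.28-fold). KRT18 was higher by 1.0 ± 0.12, KRT5 by 0.94 ± 0.12 and KRT8 by 0.87 ± 0.13. At 24 h the order was KRT19 at 1.13 ± 0.13 (2.19-fold), KRT18 at 1.09 ± 0.12 (2.13-fold), KRT5 at 0.97 ± 0.12, EPCAM at 0.93 ± 0.10 (1.91-fold) and KRT8 at 0.85 ± 0.13. All 10 of these differences were called, and each stayed called without any 1 of the 6 arrays compared and with the spike-in level in the model. The fit without the 3 arrays named above is no check of these calls. None of those arrays is in the 6 h comparison, so its differences could not move. At 24 h that fit leaves 1 infliximab array. The comparisons with 0 h and between the agents share arrays, so they are not separate evidence for a gene.

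Among the other members, MAL2 was higher with infliximab by 1.13 ± 0.32 at 6 h and 1.17 ± 0.32 at 24 h. Both were called, but only 1 of 6 removals of an array kept the call at either time (without infliximab 6 h replicate 10, or without infliximab 24 h replicate 5). With the spike-in level in the model the 6 h value of MAL2 was 0.67 ± 0.34 and not called. ESRP1 225846_at was higher by 0.61 ± 0.13 and 0.90 ± 0.13, both called, and every infliximab array (2.93 or more) exceeded every CDP870 array (2.58 or less). The 6 h call was lost without infliximab 6 h replicate 9 or CDP870 6 h replicate 16, and with the spike-in level in the model (0.51 ± 0.16). ESRP1 219121_s_at was higher by 0.40 ± 0.11 at 6 h, a call lost in each of 6 removals and with the spike-in level in the model (0.48 ± 0.14), and by 0.39 ± 0.11 at 24 h, not called. DSP differed by 0.18 ± 0.25 at 6 h and 0.82 ± 0.25 at 24 h, neither called, although its infliximab 24 h arrays all exceeded its CDP870 24 h arrays. Without infliximab 24 h replicates 5 and 6 the 24 h value of DSP was 0.33 ± 0.29.

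In all, 8 of 12 member probe sets from 7 genes were called higher with infliximab than with CDP870 at 6 h, and 7 from 7 genes at 24 h, none lower. The background is 5.10% and 4.73% of all tested probe sets. The member medians were 0.74 and 0.87, and those of all tested probe sets -0.03 and 0.00. At 6 h the count was 5 with the spike-in level in the model, and 5 without infliximab 6 h replicate 9 or without CDP870 6 h replicate 16.

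Time made no called difference to any member. Within infliximab, EPCAM was lower at 24 h than at 6 h by a log2 difference of -0.28 ± 0.10 (limma, adjusted p = 0.321), with no overlap of the 3 arrays against 3. ESRP1 225846_at differed by 0.33 ± 0.13 (limma, adjusted p = 0.353) and DSP by 0.44 ± 0.25 (limma, adjusted p = 0.497). KRT18 differed by 0.15 ± 0.12 (limma, adjusted p = 0.668), and KRT19 201650_at by 0.05 ± 0.13 (limma, adjusted p = 0.928). The background in the main fit is 0% called in either direction, for each agent's 24 h against 6 h and for the interaction of agent and time. That background depended on the arrays and the model. Without infliximab 24 h replicate 7, 2462 of the 28897 probe sets were called between the infliximab times. With array weights 280 were called between the CDP870 times. No member was called in either fit. At an unadjusted p under 0.05 there were 2 members (EPCAM and ESRP1 225846_at) among 3437 probe sets within infliximab, 0 among 1437 within CDP870 and 0 among 2642 for the interaction. The largest interaction of a member was that of DSP, 0.65 ± 0.35 (limma, adjusted p = 0.587), followed by EPCAM at -0.28 ± 0.14 (limma, adjusted p = 0.554) and ESRP1 225846_at at 0.28 ± 0.19 (limma, adjusted p = 0.647). For KRT8, KRT18, KRT19 201650_at and KRT5, the interaction was between -0.05 and 0.09, with standard errors of 0.16 to 0.19. These fits do not show that levels were equal at the 2 times.

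Within groups, the array-to-array deviations of KRT18, KRT19, KRT5 and KRT8 went together, and those of EPCAM went with MAL2 and ESRP1 225846_at. After subtraction of each group's mean, the correlation over 15 arrays was 0.78 between KRT18 and KRT8, 0.76 between KRT19 and KRT5, 0.70 between KRT5 and KRT8 and 0.45 between KRT18 and KRT19. Between EPCAM and these 4 keratins it ran from -0.24 to 0.27, and between the KRT10 probe sets and these 4 from -0.28 to 0.31. It was 0.71 between EPCAM and MAL2 and 0.64 between EPCAM and ESRP1 225846_at. DSP correlated at 0.74 with KRT5 and 0.69 with KRT8. These points share an array and its scaling, and with 3 arrays a group they are a description only. Infliximab 6 h replicate 9 was the highest of its group for all 5 genes, control replicate 3 for 4 of them (not EPCAM) and CDP870 6 h replicate 16 for 4 of them (not KRT18).

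The wider epithelial lists hold 66 other genes of keratins, desmosomes and cornified envelope, tight junctions, the epithelial surface and adherens junctions, and epithelial regulators. Of these 57 have a probe set of their own and 34 were tested. With infliximab 1 rose and 0 fell at 6 h, and 2 rose and 1 fell at 24 h, while 0 passed with CDP870. Of all tested probe sets 4.02% rose at 6 h and 3.78% at 24 h of infliximab. Between the agents 1 of the 34 was higher with infliximab at 6 h and 4 at 24 h, and none was lower, against 5.10% and 4.73% of all tested probe sets called higher. Whether these shares differ from those of the members or of all probe sets was not tested. Genes on the array but under the test limit included CDH1, the adherens junction cadherin of epithelia, the epithelial transcription factors GRHL2 and EHF, CD24, KRT14 and KRT20.

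KRT23, a type I keratin, was the only gene of these 34 called in both infliximab comparisons with 0 h and in both between the agents. It rose with infliximab by 0.79 ± 0.13 at 6 h (limma, adjusted p = 0.0028) and by 0.84 ± 0.13 at 24 h (limma, adjusted p = 0.00198). Its group means were 5.70 ± 0.07 in control, 6.48 ± 0.29 and 6.54 ± 0.07 with infliximab at 6 and 24 h, and 5.22 ± 0.18 and 5.35 ± 0.13 with CDP870 (SD, n = 3). Its infliximab arrays were all above control (6.31 or more against 5.77 or less) and its CDP870 arrays all below (5.45 or less against 5.64 or more). Between the agents it differed by 1.27 ± 0.13 at 6 h (limma, adjusted p = 5.35e-05) and 1.19 ± 0.13 at 24 h (limma, adjusted p = 8.40e-05). Among the 7 other keratins tested KRT13, of stratified mucosa, was higher with infliximab than CDP870 at 24 h by 0.66 ± 0.16 (limma, adjusted p = 0.0246). KRT1, KRT7, KRT9, KRT15 and KRT16 were called in no comparison.

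Of the junction genes, CLDN7, an epithelial claudin, was higher with infliximab than with CDP870 at 24 h by 0.77 ± 0.15 (limma, adjusted p = 0.00734), with group means of 4.24 ± 0.25 and 3.47 ± 0.02 (SD, n = 3). It did not pass against 0 h (0.41 ± 0.15 at 6 h and 0.42 ± 0.15 at 24 h). JUP, the plakoglobin that binds DSP, rose with infliximab at 24 h by 0.50 ± 0.13 (limma, adjusted p = 0.0312). The desmosomal genes DSG2, DSC2, PKP3 and EVPL were called in no comparison. ERBB3, an epithelial receptor of the EGFR family, fell by 0.47 on the log2 scale (SE 0.13) at 24 h of infliximab (limma, adjusted p = 0.0391). ST14, the epithelial surface protease matriptase, was higher with infliximab than CDP870 at 24 h by 0.40 ± 0.11 (limma, adjusted p = 0.0464). Among these epithelial lists, none other than the keratins, tight junction genes and regulators had a gene called between the agents.

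EPCAM is cleaved by ADAM17 and then by presenilin, and its fragment binds FHL2 and works with beta-catenin and LEF1. Of the 5 tested genes of this list, FHL2 and PSEN2 were called higher with infliximab than with CDP870 at both times. The background is 5.10% of all tested probe sets called higher at 6 h and 4.73% at 24 h. Whether the list differs from it, or whether EPCAM cleavage changed, was not tested. FHL2 differed by 0.50 ± 0.11 at 6 h (limma, adjusted p = 0.0147) and 0.55 ± 0.11 at 24 h (limma, adjusted p = 0.00951). PSEN2 differed by 0.45 ± 0.12 at 6 h (limma, adjusted p = 0.0274) and 0.48 ± 0.12 at 24 h (limma, adjusted p = 0.0246). ADAM17, BACE1 and LEF1 did not pass, and none of the 5 passed against 0 h for either agent. The list median between the agents was 0.25 at 6 h and 0.29 at 24 h.

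**Figure D4:**
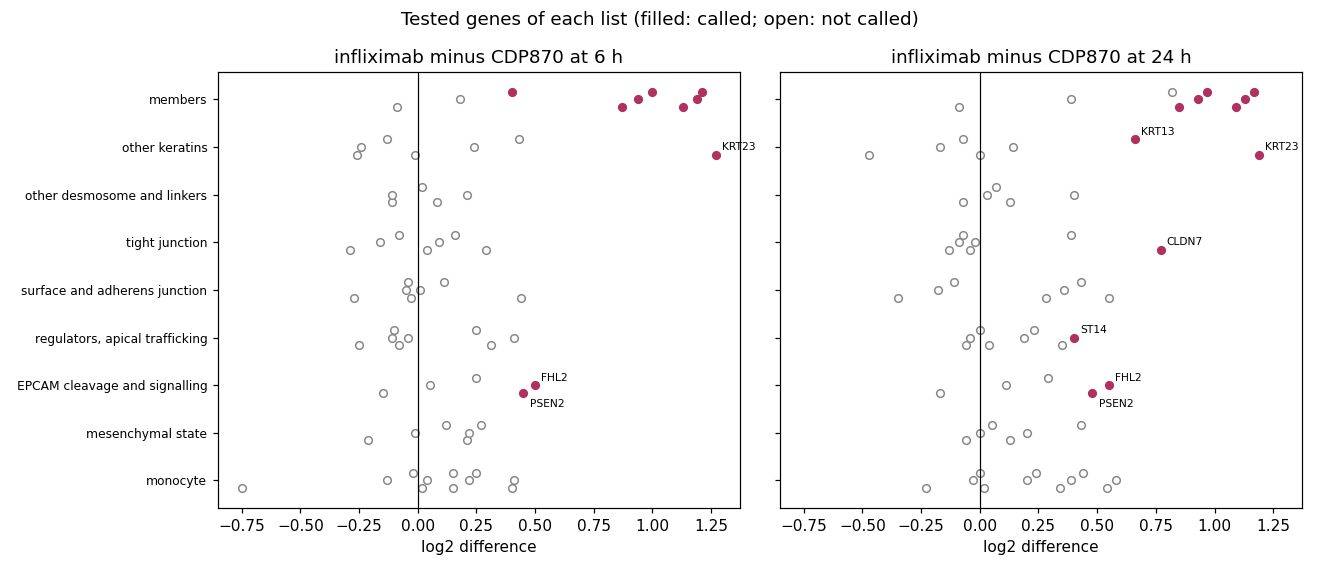
Log2 difference of infliximab minus CDP870 (x axis) at 6 h (left) and 24 h (right) for the tested genes of each list (y axis), 1 probe set per gene. Filled points were called over all tested probe sets and open points were not. The members reach 1.21 at 6 h, and KRT23, at 1.27, is the 1 gene of the other epithelial lists that is called at both times.

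The labelled cell type was checked against marker genes of monocytes and of other cells. Of 13 monocyte genes with a probe set, 11 were above the array median on all 15 arrays, among them LYZ, MPO, SPI1 and PTPRC, and 0 were above it on none. The other 2, CD14 and CD36, were above it on fewer arrays than the test needed. Markers of other cell types were not uniformly low: 2 of 5 T cell genes, 3 of 4 B cell genes (CD79A, CD79B and CD22), 1 of 6 fibroblast genes and 0 of 5 endothelial genes were above the median on all 15 arrays. Of the T cell genes 2 were above the median on no array (CD3G and CD2), and so were 1 B cell gene (MS4A1), 3 fibroblast genes (COL1A2, COL3A1 and LUM) and 2 endothelial genes (CDH5 and KDR). The mean level of the monocyte list ran from 5.70 to 5.91 on the control arrays, from 5.83 to 6.17 on the infliximab arrays and from 5.73 to 5.88 on the CDP870 arrays. For the members it ran from 5.59 to 5.75, from 6.10 to 6.30 and from 5.28 to 5.56, with no overlap. In these bulk samples fewer cells with a transcript and less RNA of it per cell cannot be told apart. Of 8 genes of the mesenchymal state, which often opposes epithelial genes, 6 were tested (VIM, FN1, ZEB1, ZEB2, SNAI1 and TWIST1), and 0 were called in any comparison. Their median between the agents was 0.16 at 6 h and 0.09 at 24 h.

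The genes next to the members on the chromosome were looked at after the values were seen. KRT8 and KRT18 are neighbours in RefSeq, and both were called between the agents. The next genes beyond KRT18 were not: EIF4B differed by 0.05 ± 0.12 at 6 h and 0.21 ± 0.12 at 24 h, TNS2 by -0.34 ± 0.18 and 0.12 ± 0.18, and SPRYD3 by -0.18 ± 0.14 and -0.12 ± 0.14. KRT15, beside KRT19, differed by 0.24 ± 0.09 and 0.00 ± 0.09, and KRT13, the next gene on that side, by 0.43 ± 0.16 and 0.66 ± 0.16, of which the second was called in the direction of KRT19. MSH6, near EPCAM, differed by -0.40 ± 0.14 and -0.28 ± 0.14, neither called, and its sign was opposite to that of EPCAM. TTC7A, on the other side of EPCAM, differed by -0.61 ± 0.19 and 0.11 ± 0.19, neither called, so its sign was opposite at 6 h only. KRT23, called at both times as given above, lies within 3 genes of KRT10, while KRT10 was not called.

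The genes most like EPCAM over the 15 arrays were CLDN11 (Pearson r = 0.987), TSC22D1 (0.967), TSEN15 (0.963), PTTG1IP (0.962) and SLC3A2 (0.956). CLDN11, a claudin best known from myelin and testis, had group means of 2.80 ± 0.09 in control, 3.92 ± 0.10 and 3.61 ± 0.25 with infliximab, and 2.39 ± 0.06 and 2.52 ± 0.16 with CDP870 (SD, n = 3). Like that of EPCAM, its mean was higher at 6 h than at 24 h of infliximab. This difference was not called (-0.31 ± 0.12 at 24 h against 6 h; limma, adjusted p = 0.35). Its control and CDP870 means lay under the array medians, where the treatment of low values is not known. The genes most like KRT18 were RGS16 (0.980), HEXA (0.972), CD9 (0.971), IER2 (0.968) and COX20 (0.966). Those most like KRT19 were KRT23 (0.967), FGF19 (0.961), and RIOK3, APCDD1 and CSF2RA (0.957 each). RGS16, a regulator of G-protein signalling, had means of 5.80 ± 0.15 in control, 6.32 ± 0.22 and 6.39 ± 0.22 with infliximab, and 5.50 ± 0.06 and 5.47 ± 0.12 with CDP870 (SD, n = 3). These correlations rest on the differences between the 5 groups, were taken as the highest among all named probe sets, and are a description of likeness only.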

How the data were processed

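RNA of 15 THP-1 samples, 3 in each of 5 groups, was measured on arrays with 54675 probe sets, of which 62 are controls. The authors deposited 1 log2 value per probe set and array (0.17 to 11.94). GCRMA and GCOS 1.3.0 are named, with no role or order, per the submitters' processing notes, and the sources used here state no further settings. Normalization that makes arrays alike would hide a change shared by most genes, and the treatment of low values, where MAL2 and ESRP1 lie, is not known.

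Groups came from the sample titles. Of the probe sets, 41091 had 1 gene symbol in the platform annotation, and 41037 were matched by Entrez gene number to RefSeq's GRCh38.p14 annotation for current names. Promoter sequences are RefSeq's. Group means were estimated in 1 fit over all 15 arrays and all 28897 tested probe sets with limma 3.58.1 (lmFit, contrasts.fit, eBayes) in R 4.3.3. Tests were two-sided, adjusted by Benjamini-Hochberg within a comparison over all tested probe sets, with calls at 0.05. Folds are powers of 2 of the log2 difference. The fit was tested on simulated data. Figures used matplotlib 3.10.9 in Python 3.11.15. Where a listed gene had several tested probe sets, the brightest on average stands for it.

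The members and lists were chosen with earlier results of these data known. All 9 members are named, with every probe set. Of each list up to 3 called genes with the smallest p per comparison are named, and for EPCAM, KRT18 and KRT19 the 5 genes with the highest correlation. Further genes were named after their values were seen. Alternatives were the filter, normalization, array weights, a trended variance, the arrays in the fit, the spike-in level as a covariate, and leaving out arrays. The number of arrays limits the precision.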

Additional observations from a re-analysis of the deposited data

Results flagged for a closer look

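In 5 genes the agents stood on opposite sides of control: every infliximab array lay above, and every CDP870 array below, all 3 control arrays. As log2 differences of infliximab minus CDP870 at 6 h and 24 h, these were 1.21 and 0.93 for EPCAM, 1.0 and 1.09 for KRT18, 1.19 and 1.13 for KRT19 (201650_at), 0.94 and 0.97 for KRT5, and 0.87 and 0.85 for KRT8. limma called the difference between the agents in all of them, but the genes were selected on earlier results of it, so the call is a description. The infliximab side was called against 0 h in all 5 genes at 24 h and in 4 at 6 h (not KRT8), and the CDP870 side in none. Groups of 3 arrays are too small to show that an array is far from the others. The arrays left out in the fits above were therefore a choice.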

How the results depend on the processing

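Each count of called members was recomputed under 131 alternatives, of which 123 stayed within 1.5 times the count reported and 8 were lower. All 8 were in comparisons where members had been called. The 123 include every alternative of the comparisons with a count of 0, where mostly no probe set at all was called and 0 stayed 0. They are therefore no measure of how stable the calls were. Against 0 h at 6 h of infliximab the count of 6 was 1 with the spike-in level as a covariate and 1 to 5 when 1 array was left out. At 24 h the count of 6 was 0 in a fit of only the groups compared (4 residual degrees of freedom among samples) and 3 without control replicate 3 and infliximab 24 h replicates 5 and 6. Between the agents at 6 h the count of 8 was 5 with the covariate and 5 to 7 when 1 array was left out. Between the agents at 24 h the count of 7 was 5 in a fit of only the groups compared. Of 780 alternatives for 72 single differences, 703 kept direction and call, 34 lost the call and 10 gained it. The other 33, of differences that were not called, changed sign, and the cause was not tested. Under the filters, the trended variance and the fit of only the groups compared, a difference is the same by construction and only its call could change. Rescaling moved an array by at most 0.09. Under repeated quantile normalization 8 members, in place of 6, lay wholly above control at 24 h of infliximab and 4, in place of 5, wholly below it at 24 h of CDP870. The filter on the mean over all arrays leaves out the dimmest members, so it gives no value for them. No paired analysis was possible because each replicate number occurs on 1 array only. With 3 arrays per group, members near the array median (MAL2, ESRP1) and with a wide spread (DSP) are the least certain.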

Other observations

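Outside the epithelial lists, some of the marker genes looked up also passed the test. CD4 and CSF1R, surface receptors of the monocyte lineage, rose with infliximab at 24 h by 0.65 ± 0.18 (limma, adjusted p = 0.04) and 0.73 ± 0.20 (limma, adjusted p = 0.0389), and the other 9 tested monocyte genes did not pass in that comparison. These are 2 of 11 tested monocyte genes, where 3.78% of all tested probe sets were called higher. Whether the shares differ was not tested. TEK, an endothelial receptor, was lower with infliximab than with CDP870 at 6 h by a log2 difference of -0.48 ± 0.14 (limma, adjusted p = 0.0427). It was 1 of 3 tested endothelial genes, where 1149 of all 28897 tested probe sets were called lower. VIRMA, the gene beside ESRP1, was also lower with infliximab than with CDP870 at 6 h, by a log2 difference of -0.44 ± 0.12 (limma, adjusted p = 0.0306), opposite to ESRP1. These values were singled out after they were seen.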
